A study of Mus musculus with 4 samples.

Results

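The genes described here encode matricellular glycoproteins, and were chosen by name: fibronectin (Fn1), 3 thrombospondins (Thbs1, Thbs2, Thbs3), tenascin C (Tnc), periostin (Postn) and 4 CCN proteins (Ccn1, Ccn2, Ccn3, Ccn5). All 10 are listed among the 56980 genes of the count table. The table holds RNA-seq of mesenchymal stromal cells (MSCs), the connective tissue cells of the marrow that lie around its vessels, support blood stem cells and give rise to bone and fat. Cells from the bone marrow of 4 male, wild-type C57BL/6J mice of an in-house colony, aged 14 weeks, were gated to carry CD51 and PDGFRa on their surface and to lack CD45, Ter119, CD31 and Sca1. One library was made from 100 cells of each mouse. There is no second group, so levels are compared between genes and between mice only.

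Matricellular proteins are secreted into the matrix mainly to change how cells bind it and respond to growth factors, rather than to bear load. Fibronectin forms fibrils that cells grip through integrins, thrombospondin 1 releases TGF-beta from its latent complex, and tenascin C and periostin are deposited in bone surfaces and healing tissue. CCN1 and CCN2, once named CYR61 and CTGF, are quickly induced targets of the YAP/TAZ-TEAD, serum response and TGF-beta pathways, and both bind integrins and heparan sulphate. CCN5 differs from the other CCN proteins in lacking the cystine-knot domain at the C-terminal end.

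RefSeq promoter windows, covering 250 bases before and 50 bases after a start of transcription, were at hand for 5 of the 10 genes (GRCm38.p6), as 7 windows in all, of which 1 is shown for each gene printed. Ccn1, Postn and Tnc are shown because they had their highest level in the same mouse, and Thbs2 because it was highest in another. Capitals mark matches, on either strand, to the letters GGAATG bound by TEAD factors, TGANTCA bound by AP-1, CAGAC bound by SMAD factors and the CArG box of serum response factor, and matches on the strand of the gene to TATAAA of the TATA box. No 2 matches overlapped in the windows shown.
Ccn1, chr3:145649936-145650235, minus strand: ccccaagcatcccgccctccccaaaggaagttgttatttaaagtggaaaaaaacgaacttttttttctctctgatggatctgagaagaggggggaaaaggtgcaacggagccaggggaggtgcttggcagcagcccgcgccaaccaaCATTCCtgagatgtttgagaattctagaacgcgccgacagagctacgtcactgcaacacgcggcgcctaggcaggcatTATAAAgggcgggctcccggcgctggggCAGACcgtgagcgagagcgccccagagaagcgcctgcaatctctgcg
Postn, chr3:54360857-54361156, plus strand: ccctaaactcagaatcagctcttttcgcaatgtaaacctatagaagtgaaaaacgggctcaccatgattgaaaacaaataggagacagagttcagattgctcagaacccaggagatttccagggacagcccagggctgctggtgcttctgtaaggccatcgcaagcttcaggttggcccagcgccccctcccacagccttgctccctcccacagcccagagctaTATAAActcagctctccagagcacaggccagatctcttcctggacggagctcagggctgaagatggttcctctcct
Tnc, chr4:64046887-64047186, minus strand: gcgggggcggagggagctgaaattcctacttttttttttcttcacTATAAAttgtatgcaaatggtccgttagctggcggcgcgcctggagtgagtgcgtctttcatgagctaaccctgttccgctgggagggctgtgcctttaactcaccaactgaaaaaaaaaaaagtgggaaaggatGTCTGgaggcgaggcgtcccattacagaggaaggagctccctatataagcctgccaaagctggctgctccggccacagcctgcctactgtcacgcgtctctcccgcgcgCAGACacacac
Thbs2, chr17:14694213-14694512, minus strand: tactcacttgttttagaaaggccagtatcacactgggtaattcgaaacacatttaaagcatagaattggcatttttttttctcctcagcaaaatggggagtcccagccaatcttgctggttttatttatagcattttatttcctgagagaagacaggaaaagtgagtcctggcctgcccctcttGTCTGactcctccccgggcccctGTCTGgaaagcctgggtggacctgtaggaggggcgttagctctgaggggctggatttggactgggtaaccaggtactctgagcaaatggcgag

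The Ccn1 window held 1 TEAD match, on the minus strand of the gene from position -103 to -98 counted from the start of transcription, 1 TATA box from -25 to -20 and 1 SMAD match from 4 to 8. The Postn window held a TATA box from -26 to -21 and no match to the other motifs, whereas the second window of this gene, not shown, held a SMAD match from -191 to -187 and no TATAAA. The Tnc window held TATAAA from -205 to -200 and 2 SMAD matches, and the Thbs2 window held 2 SMAD matches. The second Tnc window, which overlaps the one shown, held 1 SMAD match and TATAAA, and the Thbs3 window held no match. Of 32851 promoter windows of the same length, 14.7% held the TEAD letters, 8.32% TATAAA, 49.6% the SMAD letters, 7.81% the AP-1 letters and 1.63% the CArG box. A match describes the letters of the window only.

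The libraries held between 22738604 and 43545349 counts on genes. Counts were divided by the length of the merged exons of a gene and scaled to 1000000 per library, which gives TPM, a level that can be compared between genes. Of the sort antigens, Pdgfra had 39.8 ± 7.29 TPM (mean ± SD, n = 4) and Itgav, the gene of CD51, 15.7 ± 2.51 TPM, while Ptprc (CD45) and Pecam1 (CD31) were below 0.27 TPM in every mouse. Ly6a, the gene of Sca1, which the gate was to remove, had 0.0472, 8.95, 0 and 11.6 TPM in mice 1 to 4. The endothelial genes Cdh5, Kdr and Tie1 and the macrophage genes Adgre1, Csf1r, C1qa and Lyz2 had 0 counts in every library. Cd68, also listed for macrophages, had 144 counts in mouse 3 and at most 11 elsewhere. The neutrophil genes S100a8, S100a9, Elane and Mpo summed to 30.7, 19.7, 4.1 and 7.84 TPM in mice 1 to 4. The erythroid gene Hba-a1 had 1752, 7.20, 644 and 136 TPM. The genes Bglap, Ibsp, Sp7 and Alpl, which mark osteoblasts, together had between 77792 and 168024 TPM, most of it from Bglap. Bglap was highest in mouse 4, Ibsp and Alpl in mouse 3, where the sum was lowest, and Sp7 in mouse 1. Together, Cxcl12, Lepr, Prrx1, Foxc1, Ebf3 and Kitl, which mark niche-supporting cells, had between 1067 and 4644 TPM. In such bulk libraries, fewer cells of one type and less RNA per cell cannot be told apart. The pairs of libraries differed well beyond the noise of independent reads, with a chi-square of 230.5 to 428.9 per degree of freedom over genes. PCR copies are not independent, so this measure cannot tell differences between mice from those of library making. Each library is labelled as its own mouse, and each mouse counts as 1 replicate.

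Of the 10 genes, 8 were expressed, meaning a median above 1 TPM over the 4 mice, the cutoff of the study. Among all genes with a length 22.9% pass this cutoff, and among protein-coding genes 44.2%. The same 8 were above 1 TPM in every mouse, as were 15.4% of all genes and 30.1% of protein-coding genes. The medians of Ccn1, Tnc and Ccn5 were above 100 TPM, a level that 1.9% of genes exceed. The median over the 10 genes was 67.8 TPM, against 9.86 TPM over the 9684 expressed protein-coding genes. The members not expressed, Thbs3 and Ccn3, were almost without reads.

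**Figure D1:**
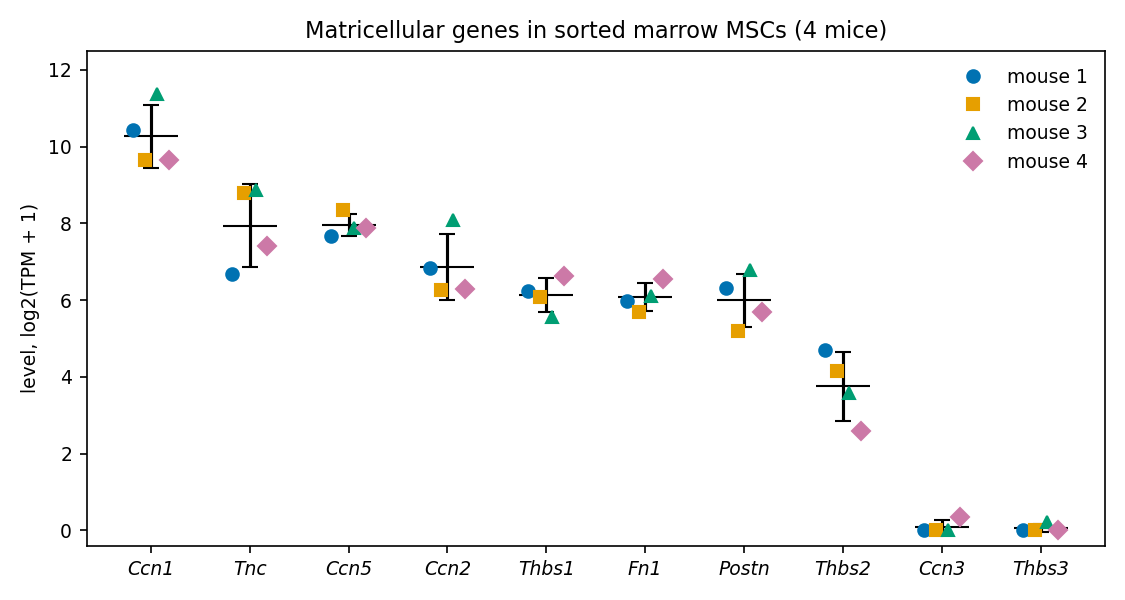
Level of each gene, as log2(TPM + 1), in the 4 mice (symbols), with the mean and SD over mice (black bars), in order of mean TPM. Ccn1 lies highest in every mouse, 7 genes lie between it and the baseline, and Ccn3 and Thbs3 lie at or near 0.

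Ccn1 (ENSMUSG00000028195), a ligand of integrins that is among the earliest genes induced by serum, was the most abundant of the 10. Its level was 1381, 802, 2650.2 and 798 TPM in mice 1 to 4 (1408 ± 872.5 TPM, SD, n = 4). Mouse 3 was the highest and mice 2 and 4 were nearly level. Ccn1 made up 67.7%, 44.1%, 68.7% and 52.3% of the summed TPM of the 10 genes in mice 1 to 4. The gene lies on chromosome 3 from 145646976 to 145649981 on the minus strand in GRCm38, with 1 annotated transcript of 5 exons, and shares no exonic bases with another gene.

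Ccn2 (ENSMUSG00000019997), a profibrotic relative of CCN1 that stimulates matrix synthesis, was lower throughout, with 114, 75.3, 270.1 and 77.2 TPM in mice 1 to 4 (134 ± 92.4 TPM, SD, n = 4). The order of the mice was close to that of Ccn1: mouse 3 was highest, mouse 1 next, and mice 2 and 4 lowest. In TPM, Ccn1 exceeded Ccn2 by 12.1, 10.7, 9.81 and 10.3 times. Within a mouse the difference was 3.41 ± 0.13 in log2(TPM + 1) (SD, n = 4), the steadiest of the 28 differences among the 8 expressed genes. Of 11947 other expressed genes, 5 had a difference from Ccn1 with an SD as small as or smaller than that of Ccn2, counting Ccn2 itself, and 4 had a difference from Ccn2 as steady as that of Ccn1. By this measure the other genes as steady against Ccn1 were Lgr6, Ncln, Tcf7l1 and Nom1. Lgr6 had only 1.12 to 6.57 TPM and Nom1 0.993 to 5.50 TPM. At such low levels the 1 added to each TPM narrows the differences between mice, so their ratios to Ccn1 in TPM vary more. This likeness was singled out after the values were seen, and over 4 mice it is a description only. Ccn2 lies on chromosome 10 from 24595442 to 24598683 on the plus strand and shares 23.2% of its exonic bases with Gm15270, a transcript on the opposite strand with between 0 and 244 counts. Read pairs over the shared part may have been left unassigned. That would lower the level of Ccn2 and raise the ratio of Ccn1 to Ccn2, and it was not tested.

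Ccn5 (ENSMUSG00000027656), a CCN protein known from bone and smooth muscle, had 204, 326, 233 and 236 TPM in mice 1 to 4 (249.9 ± 52.9 TPM, SD, n = 4). Mouse 2 was the highest, and the other mice lay close together. Ccn5 was thus lower than Ccn1 in 4 of 4 mice, by 2.33 ± 0.99 in log2(TPM + 1). Against Ccn2 it was higher in 3 of 4 mice and lower in mouse 3, and Ccn2 minus Ccn5 was -1.08 ± 1.01 (exact permutation p = 0.25, adjusted p = 0.273). The gene has 5 exons on chromosome 2, from 163820861 to 163833146 on the plus strand.

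Ccn3 (ENSMUSG00000037362), once named NOV and known to restrain osteoblast differentiation, had 0 counts in mice 1, 2 and 3 and 8 counts in mouse 4. At the depth of these libraries 3 counts correspond to between 0.0594 and 0.101 TPM for this gene, so higher levels would have been detectable, counting error alone considered. Ccn3 lies on chromosome 15 from 54745702 to 54754039 on the plus strand. No reads were counted on Ccn6 in any library. Ccn4, also called WISP1 and known as a Wnt target that promotes bone formation, was not among the 10 and had 408, 319, 291 and 209 TPM (307 ± 81.9 TPM, SD, n = 4). Of the whole CCN family, 4 genes were thus expressed in every mouse, namely Ccn1, Ccn4, Ccn5 and Ccn2 in order of mean TPM.

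Tnc (ENSMUSG00000028364), a large oligomeric protein that loosens the grip of cells on fibronectin, was second to Ccn1 in mean level. It had 101.5, 445, 467.5 and 168 TPM in mice 1 to 4 (296 ± 188 TPM, SD, n = 4). Mice 2 and 3 were high and mice 1 and 4 low, with a ratio of 4.61 between the highest and the lowest. Its 26 coding-transcript exons lie on the minus strand of chromosome 4 between 63959785 and 64047015, and 2.27% of its exonic bases are shared with 8030451A03Rik on the opposite strand, which had at most 123 counts. The niche-cell markers summed to 1067, 4644, 2387 and 1243 TPM in the same mice, most of it from Cxcl12. Of the 6 niche-cell markers only Cxcl12 and Kitl shared the order in which mice 2 and 3 were the highest, while Lepr, Foxc1 and Ebf3 were higher in mouse 4 than in mouse 3 and Prrx1 was highest in mouse 1. All 4 adipocyte markers were highest in mouse 2. Their part in the level of Tnc was not tested. The other tenascins were nearly absent, with 0 counts of Tnr in every library, at most 101 counts of Tnn and at most 43 of Tnxb, both in mouse 4.

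Postn (ENSMUSG00000027750), a fasciclin-domain protein named after the periosteum that binds integrins and aids collagen crosslinking, had 78.0, 35.6, 109.5 and 50.2 TPM in mice 1 to 4 (68.3 ± 32.6 TPM, SD, n = 4). It was highest in mouse 3 and lowest in mouse 2, and its difference from Ccn1 was the second steadiest of the 28, with an SD of 0.29. It spans 54361109 to 54391037 on the plus strand of chromosome 3. The merged exons of Postn measure 8702 bases, while its longest protein-coding transcript has 3205 bases and 22 exons. With lengths of the longest protein-coding transcript for all genes, an alternative added after the data were seen, Postn had 134 TPM, a value 1.97 times as high. Tgfbi, the other fasciclin gene examined, reached 277 counts in mouse 3 with no more than 4 elsewhere.

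Fn1 (ENSMUSG00000026193), the main adhesive glycoprotein of the early matrix, had 61.5, 50.9, 68.5 and 93.5 TPM in mice 1 to 4 (68.6 ± 18.1 TPM, SD, n = 4). Mouse 4 was the highest, and the 4 values covered less than a doubling, with 93.5 TPM being 1.84 times the lowest. Without a length correction Fn1 came next after Ccn1 and Tnc, since it is the longest, with 11685 exonic bases and 46 exons in its longest protein-coding transcript. It occupies chromosome 1 from 71585520 to 71653200 on the minus strand, and 2.50% of its exonic bases overlap Apol7d on the opposite strand, which had at most 60 counts. Fn1 was below Tnc in 4 of 4 mice, by 1.85 ± 1.25 in log2(TPM + 1). Its difference from Postn was 0.09 ± 0.72, with Fn1 higher in 2 of 4 mice (exact permutation p = 0.875, adjusted p = 0.875). With the length of the longest protein-coding transcript the direction turned, to -0.84 ± 0.73, and Postn was higher in 4 of 4 mice.

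**Figure D2:**
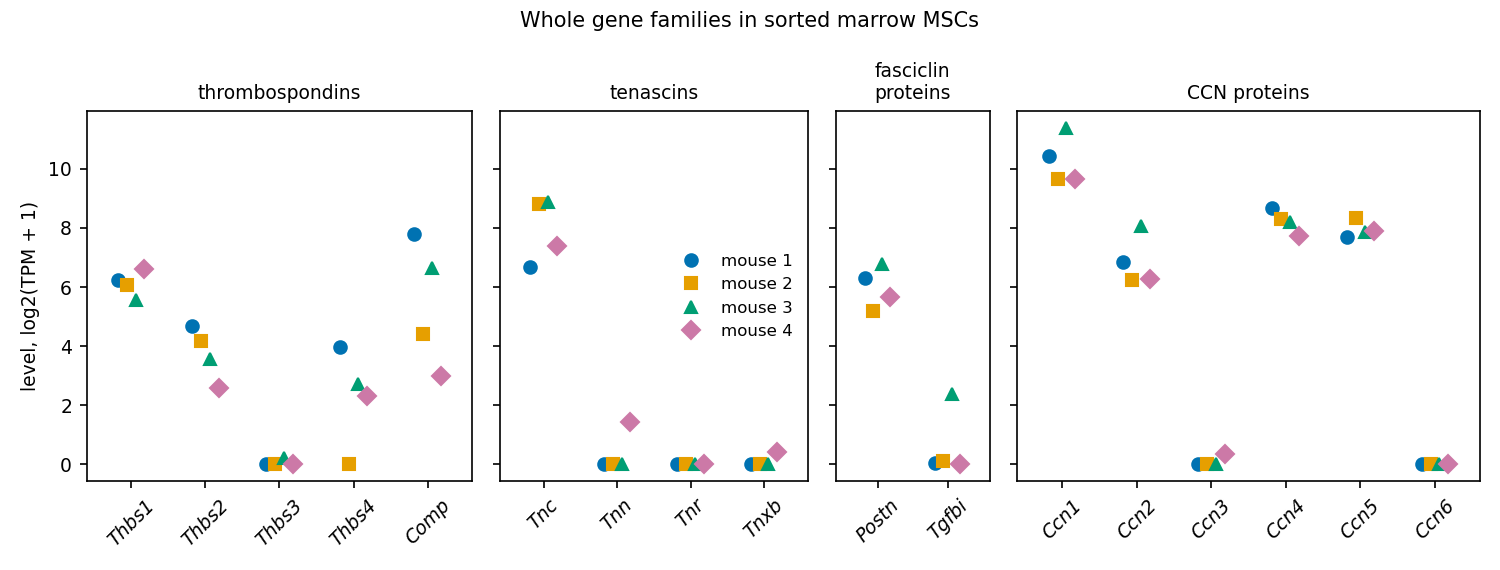
Level of every listed thrombospondin, tenascin, fasciclin and CCN gene in the 4 mice, as log2(TPM + 1). In each family some genes are present in every mouse and others, such as Thbs3, Tnr, Ccn3 and Ccn6, lie at or near 0.

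Among the thrombospondins, Thbs1 (ENSMUSG00000040152), known as an inhibitor of vessel growth and as a ligand of CD47 and CD36, had 74.7, 66.4, 46.5 and 97.7 TPM in mice 1 to 4 (71.3 ± 21.2 TPM, SD, n = 4). It was highest in mouse 4 and lowest in mouse 3, where Ccn1, Ccn2, Postn and Tnc were highest. The gene, with 22 exons, lies on the plus strand of chromosome 2 from 118111876 to 118127133, and the transcript Gm29233 that overlaps 3.43% of its exonic bases had 0 counts in every library. Thbs1 is also stored in platelets. The megakaryocyte and platelet genes (Pf4, Ppbp, Gp9, Itga2b and Gp1bb) summed to 7.95, 0, 0.683 and 0 TPM in mice 1 to 4. Their part in the level of Thbs1 was not tested.

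Thbs2 (ENSMUSG00000023885), a trimeric relative that limits matrix protease levels and shapes collagen fibrils, had 24.9, 16.9, 10.9 and 5.002 TPM in mice 1 to 4 (14.4 ± 8.49 TPM, SD, n = 4). Mouse 1 was the highest and mouse 4 the lowest, with a ratio of 4.97, the widest among the 8 expressed genes. Its 22 exons fall between 14665500 and 14694235 of chromosome 17, read on the minus strand. Thbs1 was above Thbs2 in 4 of 4 mice, by 2.37 ± 1.13 in log2(TPM + 1), and the ratio in TPM was 19.5 in mouse 4, where Thbs2 was lowest, and 3.001 to 4.25 elsewhere. The 3 expressed protein-coding genes nearest to Thbs2 in their deviations over the 4 mice were Taf10, Zscan12 and Appl2, at Euclidean distances of 0.12, 0.15 and 0.18 in log2(TPM + 1). Taf10 and Zscan12 had only 1.75 and 1.45 TPM in mouse 4, where the 1 added to each TPM narrows their drop. Of 9683 genes compared, 64 lay within a distance of 0.5, and nearness over 4 mice is a description only.

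Thbs3 (ENSMUSG00000028047), a pentameric thrombospondin known from cartilage and bone, had 13 counts in mouse 3 and 0 in the other libraries, where 3 counts correspond to 0.0354, 0.0559 and 0.0602 TPM for mice 1, 2 and 4. Thbs3 lies on chromosome 3 from 89215180 to 89226837 on the plus strand and shares 6.59% of its exonic bases with Mtx1 on the opposite strand, which had between 440 and 1455 counts. Read pairs over the exons of 2 genes are not assigned by default in the counting tool, and any effect of this was not tested. The remaining thrombospondins, Comp and Thbs4, varied widely. Comp, which stabilises cartilage and tendon matrix, had 219, 20.5, 98.7 and 6.91 TPM, and Thbs4 had 14.6, 0, 5.65 and 4.03 TPM, so both were highest in mouse 1, as was Thbs2. Markers of chondrocytes (Acan, Col9a1, Col11a2, Matn3), nearly all of it Col11a2, reached 352 TPM in mouse 1 and 219 to 229 TPM elsewhere. The erythroid genes Hba-a1, Hbb-bs and Alas2 were also highest in mouse 1 and next in mouse 3, as were Comp and Thbs4, with 1752, 7.20, 644 and 136 TPM of Hba-a1 in mice 1 to 4. The part of the chondrocyte or erythroid genes in the levels of Thbs2, Comp and Thbs4 was not tested.

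In order of mean TPM the genes were Ccn1, Tnc, Ccn5, Ccn2, Thbs1, Fn1, Postn, Thbs2, Ccn3 and Thbs3. Neighbours in this order differed by more than the SD of their within-mouse difference at 4 places: Ccn1 above Tnc, Ccn5 above Ccn2, Postn above Thbs2 and Thbs2 above Ccn3. For Ccn5 over Ccn2 this rests on a narrow margin, since Ccn2 minus Ccn5 was smaller than its SD without mouse 1 (-1.16 ± 1.22), without mouse 2 (-0.74 ± 0.91), without mouse 4 (-0.91 ± 1.16) and without a length (-0.51 ± 1.01). Tnc and Ccn5 could not be ordered, since their difference was -0.01 ± 0.90 in log2(TPM + 1) and each was higher in 2 mice. Neither could Thbs1, Fn1 and Postn, with differences of 0.04 ± 0.42 for Thbs1 over Fn1 and 0.09 ± 0.72 for Fn1 over Postn, nor Ccn2 and Thbs1, with 0.74 ± 1.24.

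For 12 pairs within families or among Fn1, Tnc and Postn, the signs of the within-mouse differences were permuted exactly, in a two-sided test. In 10 of the 12 pairs the direction was the same in 4 of 4 mice, and all 10 had the smallest exact permutation p that 4 mice allow, 1 in 8, with an adjusted p of 0.15 (Benjamini-Hochberg over the 12 pairs). The differences from Ccn3 and Thbs3 depend on the pseudocount of 1, since those genes are at 0 in most libraries. In 11 pairs the mean difference was larger than its SD over mice, with Fn1 and Postn as the exception. Postn was below Tnc in 4 of 4 mice by 1.95 ± 1.33, but with the length of the longest protein-coding transcript the difference shrank to 0.65 ± 1.33 and held in 3 of 4 mice.

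**Figure D3:**
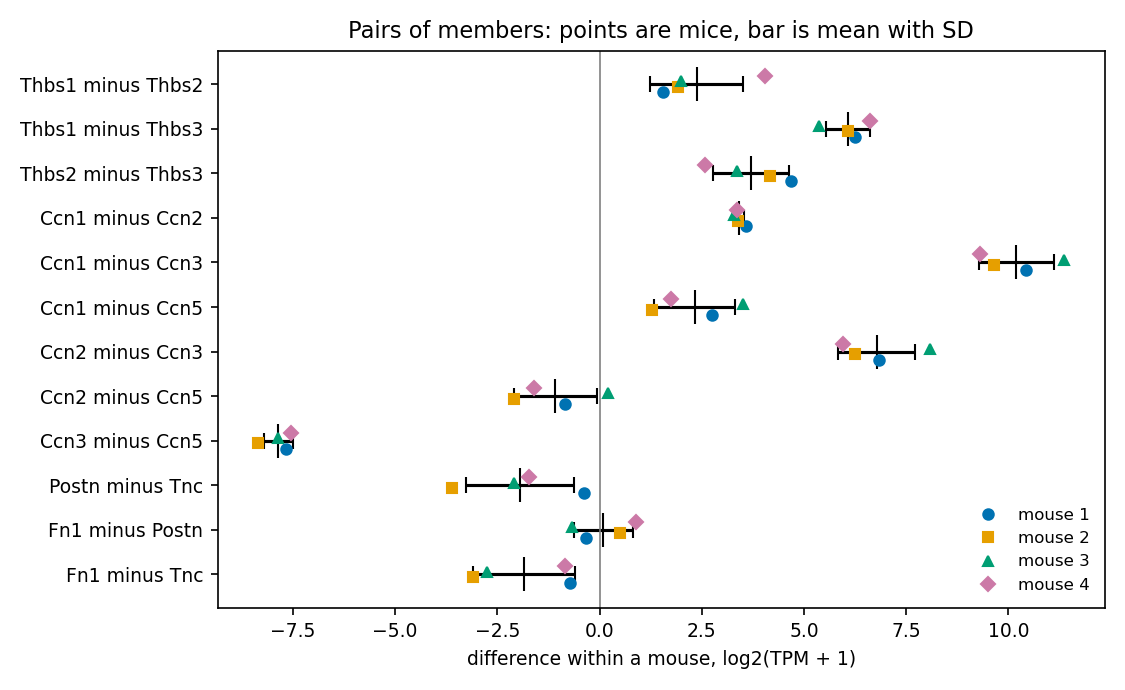
Within-mouse difference in log2(TPM + 1) for the 12 pairs, first gene minus second, with 1 point per mouse and the mean with SD as a bar. The 4 points of Ccn1 minus Ccn2 fall between 3.29 and 3.59, and those of Fn1 minus Postn lie on both sides of 0.

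The spread between mice set the 8 expressed genes apart into steadier and more variable ones. Counting error of independent reads would account for a coefficient of variation (CV) of at most 2.64%. PCR copies are not independent molecules, and each library came from 100 cells. Sampling of cells and molecules therefore cannot be told apart from differences between mice. The CVs of Ccn1, Ccn2 and Tnc were 62.0%, 68.9% and 63.5%, against medians of 18.4%, 28.3% and 21.8% over the expressed genes with a mean within 2-fold of theirs. Of those genes, 93.3%, 94.0% and 96.5% had a lower CV. Postn and Thbs2, at 47.7% and 58.9%, were above the medians of 33.5% and 50.9%. Ccn5, Thbs1 and Fn1 lay slightly below theirs, at 21.2%, 29.8% and 26.4% against 22.9%, 33.0% and 33.5%.

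**Figure D4:**
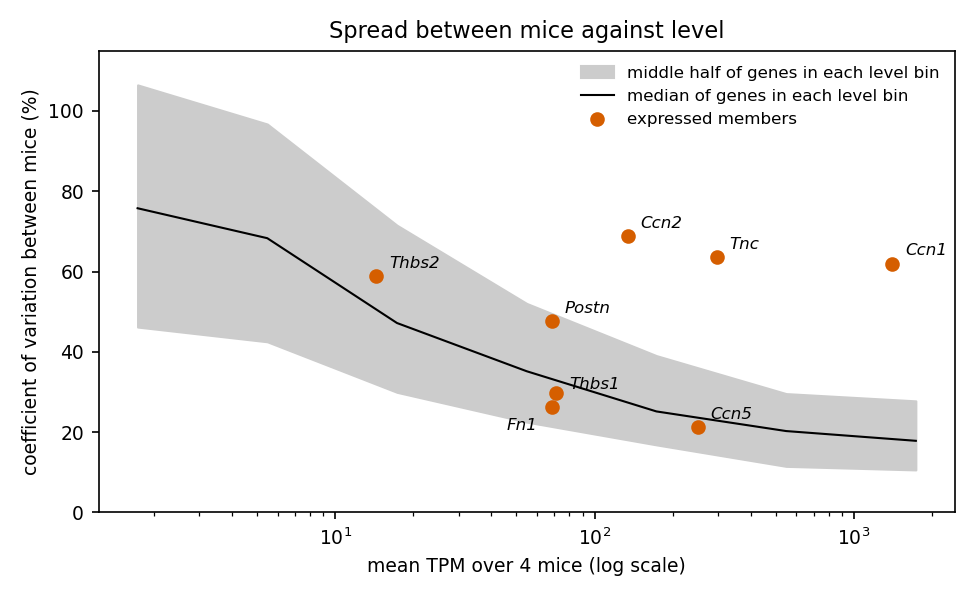
CV between the 4 mice against mean TPM on a log axis, for the 8 expressed genes (points) and for all expressed genes in bins of level (line, median, and grey band, the range from the lower to the upper quartile). Ccn1, Ccn2 and Tnc lie above the band at 62.0%, 68.9% and 63.5%, and Ccn5, Thbs1 and Fn1 lie just under the line.

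Of the 8 expressed genes 4 were highest in mouse 3, beside 29.7% of all expressed genes, and they were Ccn1, Ccn2, Postn and Tnc. One gene each was highest in mouse 1 (Thbs2, beside 25.7% of genes) and mouse 2 (Ccn5, beside 26.1%), and 2 in mouse 4 (Fn1 and Thbs1, beside 18.4%). These shares are near those of all genes for so few members. The lowest values fell in mouse 2 for 3 genes (beside 35.0%), in mice 1 and 4 for 2 each (beside 22.1% and 29.7%) and in mouse 3 for Thbs1 (beside 13.1%). Tnc was highest in mouse 2 in place of mouse 3 with TMM scaling, without the 10 highest genes in the denominator or without a length.

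**Figure D5:**
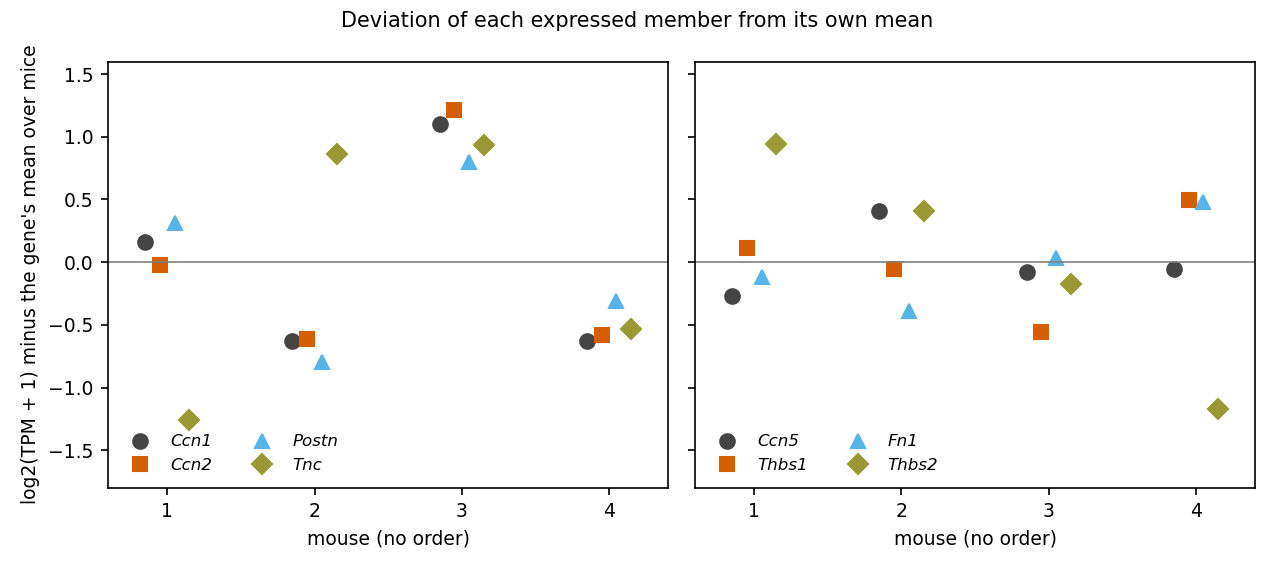
Deviation of log2(TPM + 1) from the mean of the gene over mice, for the 8 expressed genes in the 4 mice. The symbols of Ccn1 and Ccn2 nearly coincide in every mouse, Tnc departs from them in mice 1 and 2, and Thbs2 falls farthest in mouse 4.

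Ccn1 belongs to the immediate-early genes, which cells switch on within minutes of a stimulus, and the femurs were digested and filtered before the sort. The 8 immediate-early genes Fos, Fosb, Jun, Junb, Egr1, Ier2, Atf3 and Dusp1 were all above 1 TPM in every mouse, beside 30.1% of protein-coding genes. All 8 were highest in mouse 3, beside 29.7% of all expressed genes. Their summed level was 2256, 3718, 5263 and 2249 TPM in mice 1 to 4. Mouse 3 was the highest for these genes and for Ccn1 and Ccn2. Mouse 2 was second highest for their summed level and, with mouse 4, lowest for Ccn1 and Ccn2. The osteocyte gene Dmp1 had 1262, 587.5, 2105 and 435 TPM. It ranked 141 of 11947 genes in the steadiness of its difference from Ccn1, with an SD of 0.31. The SD was 0.46 for Alpl, 0.52 for Ibsp, 0.75 for Fos, 1.08 for Spp1, 1.12 for Atf3 and 1.33 for Cxcl12. Dmp1 was picked after its values were seen, and the other osteocyte genes listed did not share its order, since Phex had 56.2, 41.4, 21.3 and 49.8 TPM, lowest in mouse 3, and Sost had 0 counts in every library. The part of any of these genes in the level of Ccn1 was not tested.

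Other genes known as YAP/TAZ-TEAD targets were below Ccn1 and Ccn2 in every mouse. Of 8 (Ankrd1, Amotl2, Axl, Lats2, Ajuba, Crim1, Tgfb2 and Nuak2), 5 were expressed, beside 44.2% of protein-coding genes. The 2 above 1 TPM in every mouse, beside 30.1% of protein-coding genes, were Amotl2 and Lats2. They had 10.2 ± 4.34 and 7.75 ± 2.28 TPM (SD, n = 4), where the median over expressed protein-coding genes was 9.86 TPM. Ankrd1, a target often used as a readout, had 0 counts in every library. Of the factors themselves Wwtr1, the gene of TAZ, had 22.1 ± 7.32 TPM and Yap1 5.13 ± 4.15 TPM. Tead1 and Tead2 had means of 1.81 and 4.61 TPM, and Tead4 was at 0 counts in all libraries. Among genes known to respond to TGF-beta, Smad7, an inhibitor of its signalling, had 2.93, 10.5, 16.5 and 3.38 TPM in mice 1 to 4 and was highest in mouse 3. Skil, with 11.9 ± 1.67 TPM (SD, n = 4), was also highest in mouse 3, while Ltbp2 was highest in mouse 2, and Tgfbi was not expressed by its median.

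Of 12 receptors and partners of these proteins, 9 were expressed, beside 44.2% of protein-coding genes. Above 1 TPM in every mouse were 7, beside 30.1% of protein-coding genes. Itga5, Itga8 and Itgb8 were not expressed by their median, and Cd36 had 4.81, 0, 0 and 5.175 TPM in mice 1 to 4. Itgb1, the integrin chain shared by most matrix receptors, was the highest with 183.5 ± 20.5 TPM (SD, n = 4), followed by Sdc4, a fibronectin co-receptor, with 120.0 ± 52.4 TPM and Cd47 with 88.9 ± 33.6 TPM. Itgb5 and Itgav, which form a receptor for CCN1 and periostin, had 40.4 ± 4.26 and 15.7 ± 2.51 TPM. Itga5, the partner of Itgb1 in the main fibronectin receptor, reached 885 counts in mouse 3 with no more than 26 elsewhere. Itga9, a chain of a receptor for tenascin C, had 0.0370, 9.27, 3.79 and 6.58 TPM, with mouse 1 lowest for it as for Tnc.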

How the data were processed

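RNA-seq libraries were made from sorted marrow MSCs of 4 mice, 1 per mouse, after oligo-dT priming, template switching and PCR. The authors mapped the pairs with STAR 2.7.10 (GRCm39), assigned unique pairs to exons with featureCounts of Subread 1.6.5 and deposited raw counts per Ensembl gene, without normalization. The stated counting options include none for strand, so reads of a gene and of an antisense partner cannot be told apart. Column names were matched to mice by the sample code, and 0 columns were left unused.

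TPM was computed in Python 3.11.15 from the merged exon lengths of GENCODE M21 (GRCm38), joined by Ensembl identifier, so a gene whose exons differ between the builds has a shifted TPM. Of 56980 genes, 52125 had a length. The code was tested on simulated data. Differences between genes were taken within each mouse in log2(TPM + 1) and tested two-sided by exact permutation of their signs, adjusted over 12 pairs. With 1 group no test across all genes was possible, and edgeR 4.0.16 gave TMM factors only. Floors of 3 counts cover counting error only, since PCR copies are not independent molecules. Exons shared with other genes were read from the annotation, and BLAST 2.17.0 found no other near-identical transcripts of the members, at 95% identity over 100 bases.

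The members, the lists of related genes, receptors, targets and cell type markers and the alternatives were chosen with earlier results of these data known. The genes named are the members, those lists and the 3 genes nearest to the member with the widest range over mice, leaving out members at 0 in a library. Genes named outside this rule were chosen after their values were seen. Alternatives were the length of the longest transcript, no length, other denominators, TMM scaling, other cutoffs, another pseudocount, a minimum of 10 counts, the median over mice, leaving out each mouse and, added later, the longest protein-coding transcript. One gene of the list of TGF-beta targets and 1 of the erythroid list are not reported here.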

Additional observations from a re-analysis of the deposited data

Results flagged for a closer look

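In 9 of 37 sets of values over the 4 mice, the highest or lowest mouse passed the 95% critical value of Dixon's test. The test divides the distance from that mouse to the next by the range of all 4, here called the gap. If values were normal and sets independent, about 1 in 20 sets, or 1.85 of 37, would be flagged. Genes counted in a single library have a gap of 1.0 by construction. The rate therefore gives no reference for the 9 sets flagged here. Of the 10 members only Thbs3 and Ccn3 were among them. Both gaps are 1.0, because the 13 counts of Thbs3 fell in mouse 3 and the 8 counts of Ccn3 in mouse 4.

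Tnn, Tnxb and Tgfbi, relatives of the members, also stood apart on few counts, with Tnn in mouse 4 at 1.68 TPM (gap 0.994), Tnxb in mouse 4 at 0.341 TPM (gap 0.986) and Tgfbi in mouse 3 at 4.25 TPM (gap 0.978). The YAP/TAZ-TEAD targets beside Ccn1 and Ccn2 summed to 17.3 TPM in mouse 4 and to between 39.0 and 43.0 TPM in the others (gap 0.843). The chondrocyte markers were highest in mouse 1 at 352 TPM (gap 0.927), the megakaryocyte and platelet markers in mouse 1 at 7.95 TPM, nearly all from Gp9 (gap 0.914), and the macrophage markers in mouse 3 at 6.63 TPM, nearly all from Cd68 (gap 0.925).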

How the results depend on the processing

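The number of members expressed, 8 of 10, and the number above 1 TPM in every mouse, also 8, did not change under any alternative. Of 132 differences between pairs under the alternatives, 128 kept their direction. The 4 that turned all belong to Fn1 minus Postn, which was -0.15 with the longest transcript, -0.84 with the longest protein-coding transcript and between -0.17 and 0.35 when each mouse was left out in turn, turning without mouse 2 and without mouse 4. The shorter Postn transcripts raise its TPM by construction. Ccn1 minus Ccn2 lay between 2.91 and 3.45 under all alternatives. With 4 mice no alternative can give a p below 1 in 8. Leaving the 10 highest genes out of the denominator raised the typical expressed gene by 0.66 (log2), and Ccn5, Fn1, Postn and Thbs1 by more than 1 SD between mice, to 398.7 TPM for Ccn5, 109.8 for Fn1 and 105.9 for Postn. Without mouse 3, Ccn5 passed Tnc in the order of means. No paired analysis was possible because there is a single group, so no samples of different groups share a number. Differences between genes were already taken within a mouse. Ccn2 minus Ccn5 kept its direction throughout but fell below its SD without mouse 1, 2 or 4 and without a length. Depth limits what can be said of Thbs3 and Ccn3, at 0 in most libraries.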

Other observations

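Itga5 and Tgfbi, which bear on the same matrix but are not members, had nearly all of their counts in mouse 3. There Itga5 had 885 counts and Tgfbi 277, against no more than 26 and 4 in any other mouse. The genes steadiest against Postn were Tom1, Mea1 and Clec11a, with an SD of the difference in log2(TPM + 1) of 0.03, 0.04 and 0.04 over the 4 mice. Clec11a, known as the bone growth factor osteolectin, had 245.9, 113, 361 and 166.5 TPM in mice 1 to 4, against 78.0, 35.6, 109.5 and 50.2 TPM for Postn. These genes were picked after their values were seen and got no test.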
